A study of Mus musculus with 4 samples.

Results

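Sphingosine-1-phosphate (S1P) receptors and the genes that make, export, break down and oppose the S1P signal were analyzed in group 3 innate lymphoid cells (ILC3s) lacking Brg1, the ATPase subunit of the BAF chromatin-remodeling complex encoded by Smarca4. The 10 genes are the receptors S1pr1, S1pr2, S1pr3, S1pr4 and S1pr5, the receptor antagonist Cd69, the exporter Spns2, the kinases Sphk1 and Sphk2, and the lyase Sgpl1. They were found by gene symbol, 1 row for each of the 10 among the 53379 genes listed. The family was chosen by its measured FPKM in these same libraries, with the difference between the groups already known, so each difference in these 10 genes is given as a description, without a test of its own.

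Bone marrow from Thy1.2 Rag1-/-Smarca4f/f donors was mixed with bone marrow from Thy1.1Thy1.2 Rag1-/-Smarca4f/f donors that also carried a Cre transgene in equal cell numbers and given to sublethally irradiated Rag2-/-Il2rg-/- recipients. The small intestinal lamina propria was taken 6 to 7 weeks later, and ILC3s were sorted as CD45low cells with high Thy1.2, negative for Thy1.1 (Brg1-sufficient, the controls) or positive for it (Brg1-deficient). Both donor kinds lack Rag1 and carry the floxed Smarca4 alleles, and the Cre transgene was present only in the second. There were 2 libraries in each group, called biological duplicates in the methods, and the labels do not say which recipients they came from.

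S1P is a lipid that is abundant in blood and lymph and scarce inside tissues, and lymphocytes that carry the receptor S1P1 follow this gradient out of a tissue. CD69 binds S1P1 in the same membrane and takes it from the cell surface, so high CD69 with low S1P1 is a feature of lymphocytes that stay in tissues such as the intestine. The other receptors couple to different G proteins: S1P2 and S1P3 can act through Gq, G12 and G13 as well as Gi, S1P4 is found mainly in leukocytes, and S1P5 guides the exit of natural killer cells.

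Levels were deposited as FPKM, by definition fragments scaled to the length of the transcript and to the total of the library. No source names the step that gave the libraries nearly equal distributions, so comparisons between genes are approximate. The depth behind the levels is unknown. Sorted by size, they were nearly the same in the 4 libraries (99.3% of 13693 ranks with a mean above 1 FPKM differed by less than 1%), and a difference in RNA content per cell cannot be read from them. Smarca4 was at 17.1 and 16.7 FPKM in controls and 9.98 and 9.03 FPKM in Brg1-deficient cells (log2 fold change -0.77, standard error 0.164, adjusted p = 0.153 from limma). Of 12 ILC3 markers, none was below 1 FPKM in any library. The summed level of 10 ILC2 markers was 440 and 233 FPKM in controls and 137 and 200 FPKM in Brg1-deficient cells. It was highest in Brg1-sufficient library 1, and Gata3 and Hes1 made up most of it in Brg1-deficient cells. Of 9 ILC2 markers tested, 8 were lower and 1 was higher in Brg1-deficient cells without overlap between the groups. The shares over all genes tested were 20.2% and 24.4%, and the median log2 fold change of the 9 was -2.80. Bulk values cannot tell fewer cells of a type from less RNA per cell.

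S1pr3 had the highest mean level of the receptor genes in both groups and the largest difference between them on the log2(FPKM + 1) scale, although S1pr4 was slightly above it in 1 control library. Its level was 8.32 and 11.6 FPKM in controls and 40.4 and 33.3 FPKM in Brg1-deficient cells. Both Brg1-deficient libraries were thus far above both controls. The mean went from 9.98 ± 2.35 FPKM to 36.8 ± 4.99 FPKM (SD, n = 2 each), or 3.69-fold, and the log2 fold change on log2(FPKM + 1) was 1.79 with a standard error of 0.216. In the order of log2 fold changes from the highest, S1pr3 was number 86 of the 14739 genes with a mean above 1 FPKM in either group. Without any one of the 4 libraries in turn, the log2 fold change of S1pr3 lay between 1.58 and 2.01.

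S1P3 is well known from endothelial and smooth muscle cells. The summed level of 8 endothelial markers was 65.9 and 92.2 FPKM in controls and 67.6 and 66.1 FPKM in Brg1-deficient cells. Pecam1, which lymphocytes also express, made up most of that sum. The defining endothelial genes Cdh5 and Kdr stayed below 1 FPKM in all 4 libraries, at 0.06 to 0.29 and 0.20 to 0.77 FPKM, while Vwf and Emcn reached 1.36 and 1.29 FPKM in 1 control each. The summed level of 7 stromal and smooth muscle markers was 11.1 to 13.1 FPKM in the controls and 12.1 to 12.5 FPKM in Brg1-deficient cells. Pdgfrb made up most of it, at 6.32 and 9.05 against 6.84 and 6.59 FPKM. Acta2 was at 0.16 and 0.57 against 0.57 and 1.39 FPKM, and Col3a1 at 1.02 and 1.23 against 1.25 and 1.65 FPKM. Col1a2 had a lower mean in Brg1-deficient cells, at 1.04 and 0.45 against 0.52 and 0.16 FPKM. The part of such cells in the values of S1pr3 was not tested.

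S1pr3 lies on chromosome 13 of GRCm38 from 51408639 to 51422797, on the plus strand, with 2 exons of which 1 holds the whole coding sequence. An antisense lincRNA, Gm32834, overlaps 1.01% of its exonic bases and was at 0.14 to 0.63 FPKM. The next protein-coding gene on the right, Shc3, which encodes a Shc adaptor best known from neurons, lies 8.24 kb away on the other strand. Shc3 was at 0.92 and 0.38 FPKM in control and 4.21 and 2.84 FPKM in Brg1-deficient cells (log2 fold change 1.46, standard error 0.341, adjusted p = 0.182 from limma). Neither group overlapped the other in this neighbour, which was higher in the same libraries as S1pr3. Shc3 passed the limit of a mean above 1 FPKM only through Brg1-deficient cells. On the left, Nxnl2 lies 233 kb away and was at 1.09 and 0.53 against 1.27 and 1.99 FPKM.

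The promoters of the receptor genes with the highest levels, S1pr3 and S1pr4, are shown side by side because their transcripts were at nearly equal mean levels in controls and at different levels in Brg1-deficient cells. Each is the RefSeq sequence on GRCm38.p6 from 250 bases before the transcription start to 50 bases after it, 5′ to 3′ on the strand of the gene, at chr13:51408368-51408667 (plus strand) and chr10:81500088-81500387 (minus strand). Capitals mark matches to CACCC, the core that Krüppel-like factors bind, on either strand.
S1pr3: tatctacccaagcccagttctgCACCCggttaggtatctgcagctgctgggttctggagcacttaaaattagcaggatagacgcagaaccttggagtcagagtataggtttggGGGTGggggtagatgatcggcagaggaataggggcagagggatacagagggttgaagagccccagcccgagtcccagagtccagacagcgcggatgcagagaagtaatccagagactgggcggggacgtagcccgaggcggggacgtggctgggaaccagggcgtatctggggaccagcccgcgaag
S1pr4: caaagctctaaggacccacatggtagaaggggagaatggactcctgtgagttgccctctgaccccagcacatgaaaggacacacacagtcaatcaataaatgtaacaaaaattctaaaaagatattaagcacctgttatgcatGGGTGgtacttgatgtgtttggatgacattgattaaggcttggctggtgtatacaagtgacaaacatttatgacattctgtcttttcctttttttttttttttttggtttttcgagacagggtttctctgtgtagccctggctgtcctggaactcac
The S1pr3 window held 2 CACCC matches, which begin 228 and 137 bases before the start, and the S1pr4 window held 1, which begins 107 bases before it. Of all 32851 promoter windows of this length, 57.5% held CACCC. Other motifs were searched on both strands, and neither window held their letters. The T-box core GGTGTG stood in 19% of all windows. The RUNX core TGTGGT stood in 16.8% of them. The AP-1 site TGANTCA stood in 7.81%. No matches overlapped each other in these windows. The G and C content was 59.0% for S1pr3 and 41.0% for S1pr4. Promoter windows were found for 8 of the 10 genes.

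S1pr4 was at 7.47 and 11.9 FPKM in controls and 9.73 and 15.4 FPKM in Brg1-deficient cells. Library 2 was the higher one in each group, and the groups overlapped. The means were 9.68 ± 3.13 and 12.6 ± 4.02 FPKM (SD, n = 2 each), and the log2 fold change of 0.34 had a standard error of 0.309. It was 0.042 without Brg1-sufficient library 1, 0.038 without Brg1-deficient library 2 and at most 0.65 without either of the others. S1pr4 is a gene of 1 exon on chromosome 10 from 81497747 to 81500132. Its nearest neighbours, Ncln and Gna15, lie 1.35 and 2.17 kb away. Gna15, a G protein alpha subunit of the Gq class, was at 4.71 and 8.04 against 10.8 and 9.04 FPKM (log2 fold change 0.60, standard error 0.276, adjusted p = 0.46 from limma), and its log2 fold change was 0.27 without Brg1-sufficient library 1.

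**Figure D1:**
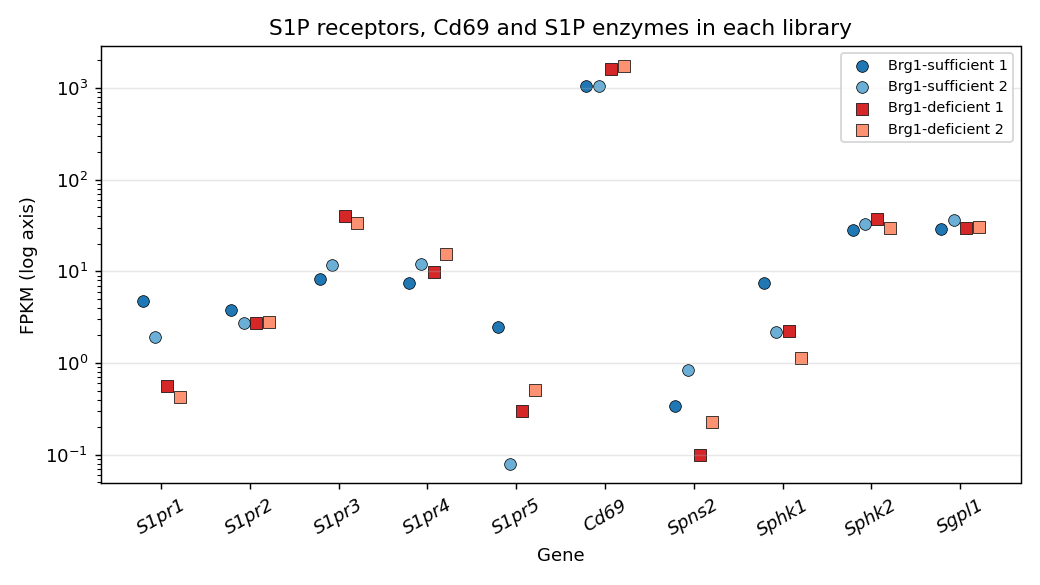
FPKM (log axis) of the 10 genes in each library, with circles for the 2 Brg1-sufficient and squares for the 2 Brg1-deficient libraries. S1pr3 and Cd69 lie higher and S1pr1 and Spns2 lower in both squares than in both circles, while the symbols of S1pr2, S1pr4, S1pr5, Sphk1, Sphk2 and Sgpl1 overlap between the groups.

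S1pr1, the receptor that carries lymphocytes out of tissues, had low levels in all libraries and the largest difference downwards. It was at 4.71 and 1.94 FPKM in controls and 0.56 and 0.43 FPKM in Brg1-deficient cells. The groups did not overlap, and control library 1 was well above control library 2. The means were 3.33 ± 1.96 and 0.495 ± 0.0919 FPKM (SD, n = 2 each), so the control mean was 6.72 times the Brg1-deficient mean. On the log2 scale the difference was -1.46 (standard error 0.414), or -2.40 on log2(FPKM + 0.1), and it was -0.98 without Brg1-sufficient library 1. In the order of log2 fold changes from the lowest, S1pr1 was number 254 of 14739.

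The summed levels of 10 ILC2 markers, given above, and of 7 T cell markers (101 and 55.8 FPKM in controls, 29.7 and 31.5 FPKM in Brg1-deficient libraries) were highest in Brg1-sufficient library 1, as S1pr1 was. The ILC2 cytokine gene Il5 was at 24.8 FPKM in that library, 1.64 FPKM in the other control and 0.32 and 0.06 FPKM in Brg1-deficient cells. Other ILC2 markers differed in pattern, since Areg was at 26.7 and 58.7 against 16.4 and 11.3 FPKM and Hes1 at 26.7 and 24.3 against 41.0 and 78.7 FPKM. All 5 T cell markers tested had groups that did not overlap and were lower in Brg1-deficient cells, as against 20.2% of all genes tested, and Cd3e was at 8.95 and 7.02 against 1.01 and 3.08 FPKM. The donors lack Rag1, and the paper describes such mice as without T and B cells. The T cell marker transcripts are therefore not read as coming from T cells. The part of ILC2s, or of other cells with these transcripts, in the values of S1pr1 was not tested. Gata3, Areg and Hes1 of the ILC2 list and Cd4 of the T cell list were at 10 FPKM or more in all 4 libraries. Cd4 was the largest value of the T cell list in each library, at 43.55 and 32.75 FPKM in controls and 25.22 and 19.76 FPKM in Brg1-deficient cells.

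S1pr5, the receptor of natural killer cell exit, was at 2.48 FPKM in Brg1-sufficient library 1 and at 0.08 FPKM in library 2, and at 0.30 and 0.51 FPKM in Brg1-deficient cells. The controls thus lay on both sides of the Brg1-deficient libraries. The log2 fold change of -0.47 (standard error 0.637) became 0.38 without Brg1-sufficient library 1. S1pr2, which opposes cell migration in several cell types, was at 3.76 and 2.76 FPKM in controls and 2.75 and 2.80 FPKM in Brg1-deficient cells. The groups overlapped, and their log2 difference was -0.16 (standard error 0.251). Both genes lie on chromosome 9 near Smarca4. S1pr2 (20962361 to 20976781) ends 639 kb and S1pr5 (21242912 to 21248443) 368 kb before Smarca4 starts.

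**Figure D2:**
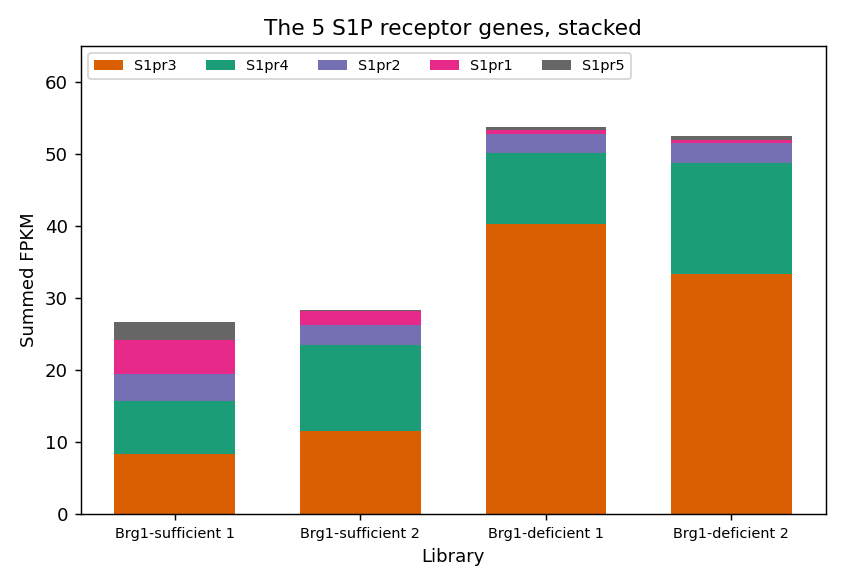
Summed FPKM of the 5 S1P receptor genes in each library, stacked by gene. The sum is 26.7 and 28.3 FPKM in the Brg1-sufficient and 53.7 and 52.4 FPKM in Brg1-deficient cells, and the S1pr3 segment carries the difference.

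The receptor transcripts as a whole were 1.93-fold higher in Brg1-deficient cells, with summed levels of 27.5 ± 1.11 and 53.1 ± 0.877 FPKM (SD, n = 2 each). S1pr3 alone gave 31.1% and 41.1% of the sum in controls and 75.2% and 63.5% in Brg1-deficient cells. Without S1pr3 the sums were 18.4 and 16.7 FPKM against 13.3 and 19.1 FPKM, which overlapped. S1pr1 gave 17.6% and 6.85% of the sum in controls and 1.04% and 0.82% in Brg1-deficient cells. The ratio of S1pr3 to S1pr1 was 1.77 and 6.00 in the controls and 72.1 and 77.4 in Brg1-deficient cells. There S1pr1 was at only 0.56 and 0.43 FPKM, near 0, and the counting error of such levels was not assessed. The S1pr3 to S1pr4 ratio was 1.11 and 0.979 in controls and 4.15 and 2.16 in Brg1-deficient cells.

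Cd69, whose product holds S1P1 inside the cell and which is also induced within hours of lymphocyte activation, had by far the highest level of the 10 genes. It was at 1046 and 1055 FPKM in controls, where it ranked 80 and 79 among all genes. It was at 1602 and 1742 FPKM in Brg1-deficient cells, where it ranked 52 and 49. The controls differed by less than 1% and both were below both Brg1-deficient libraries. Since values of equal rank were nearly the same in the 4 libraries, this closeness mirrors neighbouring ranks and is no measure of replicate precision. The means were 1050 ± 5.86 and 1672 ± 98.9 FPKM (SD, n = 2 each), or 1.59-fold, for a log2 fold change of 0.67 with a standard error of 0.136. Leaving out 1 library at a time gave 0.61 to 0.73. The ratio of Cd69 to S1pr1 was 222 and 544 in controls and 2860 and 4050 in Brg1-deficient cells. The latter rest on S1pr1 levels of 0.56 and 0.43 FPKM, whose counting error was not assessed.

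Cd69 lies in the natural killer gene complex on chromosome 6 from 129267325 to 129275436, with 5 coding exons and no overlapping gene. Clec2d, a C-type lectin gene 80.8 kb to the left, was at 3.76 and 3.87 FPKM in controls and 5.46 and 4.52 FPKM in Brg1-deficient cells (log2 fold change 0.31, standard error 0.215, adjusted p = 0.61 from limma). The neighbour on the right, 4922502D21Rik, was below 1 FPKM in all 4 libraries.

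The sphingosine kinases make S1P. Sphk2, mostly a nuclear and mitochondrial enzyme, was at 28.4 and 32.7 FPKM in control and 36.8 and 29.3 FPKM in Brg1-deficient cells. The groups overlapped, and the log2 difference of 0.11 had a standard error of 0.180. Its exons share 13.0% of their bases with Dbp and 8.97% with Rpl18, which lie on the other strand. Rpl18 was at 410 to 532 FPKM, and the counting is not stated to use strand. Sphk1, the cytoplasmic kinase that moves to the plasma membrane on stimulation, was at 7.40 and 2.16 FPKM in controls and 2.24 and 1.14 FPKM in Brg1-deficient cells. Brg1-sufficient library 1 was the high one and library 2 lay between the Brg1-deficient libraries. The log2 fold change of -0.97 (standard error 0.524) became -0.26 without Brg1-sufficient library 1, the library with the most ILC2 and T cell marker transcripts.

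Summed kinase transcripts were 35.8 and 34.9 FPKM in controls and 39.1 and 30.5 FPKM in Brg1-deficient cells. The ratio of Sphk2 to Sphk1 was 3.84 and 15.1 in controls and 16.4 and 25.7 in Brg1-deficient cells.

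Sgpl1, the lyase that cleaves S1P irreversibly and keeps it low in tissues, was at 28.8 and 35.9 FPKM in controls and 29.5 and 30.1 FPKM in Brg1-deficient cells. The Brg1-deficient values lay between the controls, and the log2 difference was -0.11 (standard error 0.169). Its ratio to the summed kinases was 0.803 and 1.03 in controls and 0.755 and 0.987 in Brg1-deficient cells. Spns2, which exports S1P from endothelial cells, was at 0.34 and 0.84 FPKM in controls and 0.10 and 0.23 FPKM in Brg1-deficient cells. It was below 1 FPKM in every library and is the 1 gene of the 10 left out of the test. Its paralog Spns3, which lies 5.01 kb to the right, was at 5.93 and 2.77 FPKM in controls and 0.80 and 0.56 FPKM in Brg1-deficient cells (log2 fold change -1.61, standard error 0.383, adjusted p = 0.185 from limma). Spns3 was highest in the same control library as S1pr1 and Sphk1, and it passed the limit of a mean above 1 FPKM only through the controls.

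**Figure D3:**
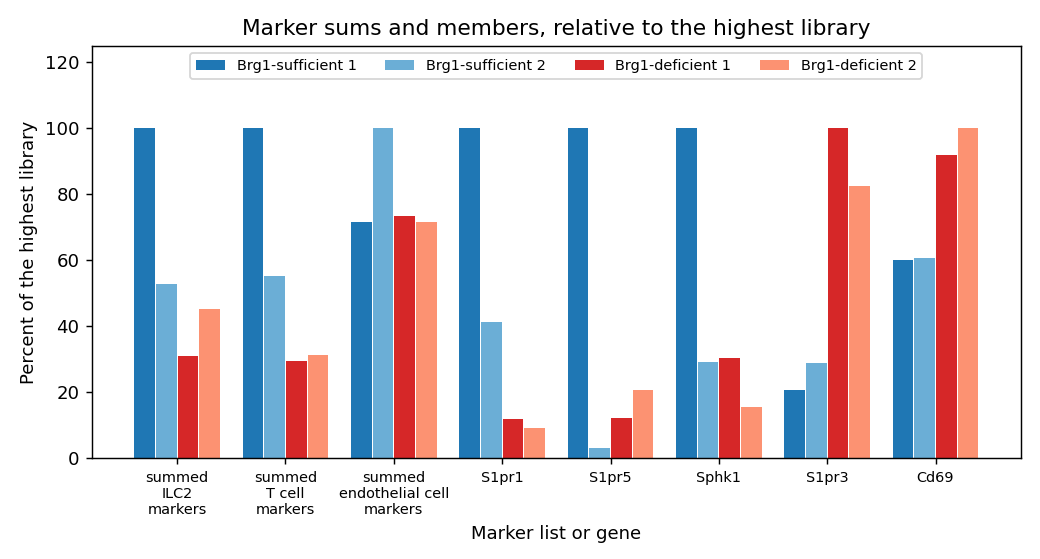
Summed FPKM of the ILC2, T cell and endothelial marker lists and FPKM of 5 of the genes, each as a percent of its highest library. S1pr1, S1pr5 and Sphk1 are highest in Brg1-sufficient library 1, as the ILC2 and T cell sums are, while S1pr3 and Cd69 are highest in Brg1-deficient cells. Cd4 is the largest value of the T cell list in each library.

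In controls the order of mean levels was Cd69, Sgpl1 (32.3 FPKM), Sphk2 (30.6 FPKM), S1pr3 (9.98 FPKM), S1pr4 (9.68 FPKM), Sphk1 (4.78 FPKM), S1pr1 (3.33 FPKM), S1pr2 (3.26 FPKM), S1pr5 (1.28 FPKM) and Spns2 (0.59 FPKM). Neighbours in this order overlapped between their libraries, except that Cd69 lay above Sgpl1, Sphk2 above S1pr3, S1pr4 above Sphk1 and S1pr2 above S1pr5. In Brg1-deficient cells S1pr3 (36.8 FPKM) stood second, before Sphk2 (33.1 FPKM), Sgpl1 (29.8 FPKM) and S1pr4 (12.6 FPKM), and its libraries overlapped those of Sphk2.

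Of the 10 genes, 9 passed the limit of a mean above 1 FPKM in either group. S1pr1 and S1pr5 passed it only through the controls. With limma and Benjamini-Hochberg adjustment over all genes, 0 of the 9 reached an adjusted p below 0.05, as against 0.305% of all genes tested (0.224% lower and 0.0814% higher), and 3 (S1pr1, S1pr3 and Cd69) had an unadjusted p under 0.05, as against 12.6%. The groups did not overlap in 3 of the 9, as against 44.6% of all genes tested. Nothing is read from these counts, because the genes were taken up with this comparison known. The median log2 fold change was -0.11 for the 9 genes and 0.03 for all genes tested. For 1 gene, permuting 2 and 2 libraries (exact, two-sided) cannot give a p below 0.333, so limma's pooling of the spread over genes decides the calls.

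**Figure D4:**
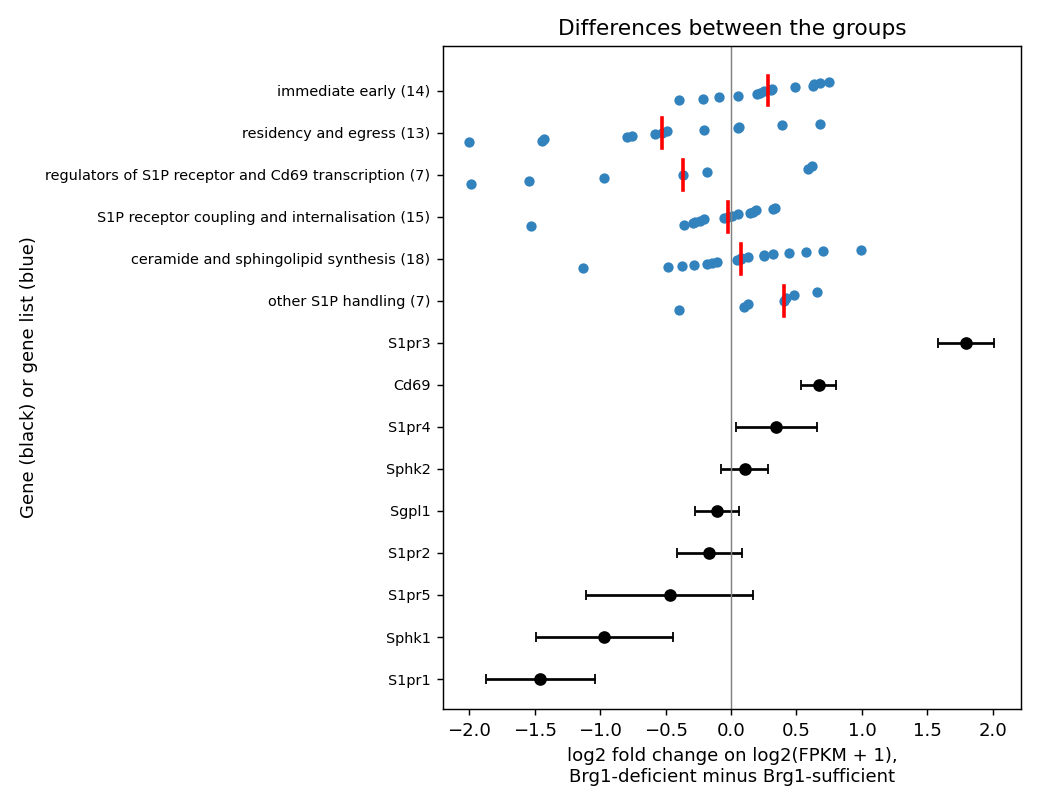
Log2 fold change on log2(FPKM + 1), Brg1-deficient minus Brg1-sufficient, for the 9 tested genes of the family (black, with standard errors) and for every tested gene of 6 lists (blue, with the number tested and a red line at the median). S1pr3 lies furthest to the right at 1.79 and S1pr1 is the lowest black point at -1.46, and the list medians lie between -0.52 and 0.40.

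Other genes of the pathway were taken from lists by function. Of 12 other genes that handle S1P or its precursor sphingosine (phosphatases, ceramidases, carriers), 7 were tested. By limma 0 of the 7 were called (0.305% of all genes tested) and 0 had an unadjusted p under 0.05 (12.6%). Their median log2 fold change was 0.40, with 5 higher and 1 lower without overlap between the groups (24.4% and 20.2% of all genes tested). Plpp2, a lipid phosphate phosphatase, was at 0.54 and 1.43 against 1.97 and 2.14 FPKM, and Asah2, the neutral ceramidase, at 0.47 and 1.09 against 1.72 and 1.21 FPKM. The acid ceramidase Asah1, which frees sphingosine in lysosomes and was chosen after its values were seen, was at 36.8 and 51.0 against 58.2 and 58.4 FPKM. The adjusted p of these 3 was 0.523, 0.629 and 0.46 from limma. Sgpp1, the S1P phosphatase, was at 3.94 and 4.19 against 4.78 and 4.10 FPKM, and the carrier Apom was at 0.23 and 0.53 FPKM in controls and listed at 0 in Brg1-deficient cells.

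Of 24 genes of ceramide and sphingolipid synthesis, 18 were tested and 0 were called by limma (0.305% of all genes tested). At an unadjusted p under 0.05 by limma, 2 were lower and 3 higher (6.47% and 6.12% of all genes tested). The 2 largest log2 differences without overlap were in opposite directions. Ugcg, which turns ceramide into glucosylceramide, was at 11.5 and 6.28 FPKM in controls and 3.28 and 3.41 FPKM in Brg1-deficient cells (log2 fold change -1.13, standard error 0.304, adjusted p = 0.231). Sgms1, which turns it into sphingomyelin, was at 17.4 and 17.5 FPKM in controls and 33.0 and 38.6 FPKM in Brg1-deficient cells (log2 fold change 0.99, standard error 0.158, adjusted p = 0.0988 from limma). The median of the list was 0.08.

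Of 17 genes that couple S1P receptors to their signal or take them in, 15 were tested. By limma 0 were called (0.305% of all genes tested) and 1, Grk3, was lower at an unadjusted p under 0.05 (6.47%). Grk3, a receptor kinase, was at 6.35 and 4.46 FPKM in controls and 0.90 and 1.54 FPKM in Brg1-deficient cells (log2 fold change -1.53, standard error 0.298, adjusted p = 0.132). Grk2, the kinase known to desensitize S1P1, was at 15.3 and 15.7 against 17.9 and 13.7 FPKM (log2 fold change 0.01, standard error 0.190). Gnai2, the Gi subunit that serves chemotaxis, was at 28.0 and 25.0 against 20.6 and 22.3 FPKM, and Gna12 at 4.09 and 3.05 against 2.62 and 2.48 FPKM. The median of the list was -0.02.

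Of 9 regulators of S1P receptor or Cd69 transcription, 7 were tested and 0 were called by limma (0.305% of all genes tested). At an unadjusted p under 0.05 by limma, 3 were lower and 1 higher (6.47% and 6.12% of all genes tested). Klf2, the transcription factor that drives S1pr1 in T cells, was at 8.17 and 9.25 FPKM in controls and 10.9 and 17.6 FPKM in Brg1-deficient cells (log2 fold change 0.62, standard error 0.260, adjusted p = 0.422 from limma). Without Brg1-deficient library 2, the log2 fold change of Klf2 was 0.29. Foxo1, which acts upstream of Klf2, was at 6.67 and 6.18 against 4.92 and 4.59 FPKM (log2 fold change -0.37, adjusted p = 0.514). Tbx21 and Zeb2, which promote S1pr5 in natural killer cells, were at 4.21 and 6.04 against 1.28 and 0.90 FPKM and at 22.5 and 13.5 against 4.19 and 3.21 FPKM. For Tbx21 the adjusted p was 0.119 by limma. For Zeb2 the log2 difference of -1.98 had a standard error of 0.288 and an adjusted p of 0.086 by limma. That p was 0.049 when only genes with a mean above 5 FPKM were tested, 0.212 without a filter, 0.138 without trend and between 0.00312 and 0.563 over all alternatives.

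Of 14 other genes of tissue residency and egress, 13 were tested and 0 were called by limma (0.305% of all genes tested). At an unadjusted p under 0.05 by limma, 7 were lower and 1 higher (6.47% and 6.12% of all genes tested). The median log2 fold change was -0.52. Ccr7, the receptor for lymph node homing, was at 45.9 and 20.9 FPKM in controls and 8.05 and 6.11 FPKM in Brg1-deficient cells (log2 fold change -2.0, standard error 0.383, adjusted p = 0.127). Like S1pr1, it was higher in Brg1-sufficient library 1 than in library 2. The residency integrin gene Itga1 was at 3.62 and 5.19 against 0.82 and 1.12 FPKM (log2 fold change -1.44, standard error 0.291, adjusted p = 0.142 from limma), and Rgs1, which dampens chemoattractant receptors, was at 2721 and 2825 against 1897 and 1960 FPKM (log2 fold change -0.52, adjusted p = 0.226). Gpr183, the oxysterol receptor that positions ILC3s in the gut, was the 1 gene counted as higher, at 132 and 149 against 231 and 220 FPKM (log2 fold change 0.68, adjusted p = 0.142). Rgs1 and Gpr183 were chosen after their values were seen.

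All 14 immediate early genes, which like Cd69 respond to stimulation, were tested. By limma 0 were called (0.305% of all genes tested) and 2 had an unadjusted p under 0.05, both higher (6.12%). The median log2 fold change was 0.28, where that of Cd69 was 0.67. Egr2 was at 7.22 and 8.15 against 10.4 and 14.8 FPKM, Egr3 at 1.58 and 1.15 against 3.73 and 2.31 FPKM, and both encode factors that act downstream of antigen receptor and calcium signals. Fos was at 2122 and 3390 against 2545 and 4026 FPKM, with library 2 the higher one in each group. Across the list, 7 genes were higher without overlap between the groups (24.4% of all genes tested) and 7 overlapped.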

How the data were processed

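RNA from sorted small intestinal ILC3s of mixed chimeras was sequenced in 2 Brg1-sufficient and 2 Brg1-deficient libraries, grouped by the sample titles. Per the labels, reads were mapped by the authors with STAR 2.5 to GRCm38.p5 and genes quantified with RSEM 1.2. The paper's methods name GENCODE M16. The authors deposited FPKM values, already of nearly equal distribution in the 4 libraries, a step that no source names. Counts were not used here, so precision from depth is unknown.

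Genes with a mean above 1 FPKM in either group were tested with limma 3.58.1 (R 4.3.3, eBayes with trend) on log2(FPKM + 1), with Benjamini-Hochberg adjustment and a threshold of 0.05. This scale understates changes of low genes. The 10 genes and all lists were chosen with earlier results of these data known. Named genes were the 10, Smarca4, Klf2, Foxo1 and Tbx21, the 2 largest log2 fold changes without overlap in each list, nearest protein-coding neighbours, and the 3 genes most like S1pr1 and Cd69. Other list and marker genes named in the text were chosen after their values were seen. Positions come from GENCODE M21 on GRCm38. For Itgam, listed under 2 identifiers, the lower one was used. The code was tested on simulated data. Alternatives were the replicate number as a block, a pseudocount of 0.1, no filter or one at 5 FPKM, quantile normalization, no trend, and leaving out each library.

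Libraries of both groups share numbers in the titles, but no source says that these pair them. Some items are not reported here.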

Additional observations from a re-analysis of the deposited data

How the results depend on the processing

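Calls depend on the fit more than values do. Over all genes, 33 lower and 12 higher genes became 248 and 150 with a replicate block (the number in the titles), 73 and 41 with a filter on a mean above 5 FPKM, 0 and 0 without a filter, and 0 and 0 with limma without trend. Each fit that left out 1 library gave 0 and 0, where the lone library of a group is assumed to vary like the other group. Fewer or more genes entered the adjustment with other filters, and why other counts moved was not tested. Same-numbered libraries' deviations from their group means correlated at -0.000386 across genes. In the S1P family, 0 higher genes became 1 (S1pr3) with the block and 1 with the filter at 5 FPKM. Nothing is read from this call, since the genes were chosen with the difference known. The block also gave 1 higher gene in ceramide and sphingolipid synthesis (Sgms1), 1 lower among the regulators (Zeb2, also 1 with the filter at 5 FPKM) and 1 lower in residency and egress (Ccr7). No other count in these lists moved.

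The log2 fold change of S1pr1 went from -1.46 to -2.40 with a pseudocount of 0.1, and those of the other 8 tested genes moved by less than the spread between replicates, while Spns2 was not tested under that setting. Leaving out a library gave -1.93 to -0.98 for S1pr1, -1.67 to -0.26 for Sphk1, 0.038 to 0.65 for S1pr4, -0.33 to 0.0057 for S1pr2, -1.31 to 0.38 for S1pr5, -0.054 to 0.26 for Sphk2 and -0.26 to 0.048 for Sgpl1. The sign of the last 4 depended on 1 library. It did not for S1pr3, S1pr4, Cd69, Spns2, Sphk1 and S1pr1. Among neighbours and overlapping genes, signs changed for Dph5 (-0.046 to 0.19), Mrpl4 (-0.12 to 0.24), Keap1 (-0.13 to 0.26), Atg4d (-0.20 to 0.050) and Rpl18 (-0.12 to 0.25). With unknown depth, counting error of genes near 0 FPKM was not assessed.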

Other observations

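The 3 protein-coding genes whose pattern over the 4 libraries was most like that of S1pr1 were Hey1, Klk8 and Tmem132c, among 8089 genes with a mean above 5 FPKM in either group. Likeness was the root mean square difference of log2(FPKM + 1) after centring each gene on its own mean, which was 0.036, 0.061 and 0.089, where the values of S1pr1 itself spread with an SD of 0.804. Hey1, a transcriptional repressor downstream of Notch, was at 7.96 and 3.68 FPKM in control and 1.34 and 1.28 FPKM in Brg1-deficient cells. The genes most like Cd69 were Cep41, Lpar6 and Adm, at 0.012, 0.021 and 0.024, where the SD of Cd69 was 0.337. Lpar6, a receptor for the related lipid lysophosphatidic acid, was at 14.2 and 14.6 FPKM in controls and 22.4 and 25.2 FPKM in Brg1-deficient cells. Likeness over 4 libraries is a description.

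Of the 20 protein-coding neighbours of the 10 genes, 15 were tested. By limma 0 were called (0.305% of all genes tested), and 4 (Shc3, Spns3, Car11 and Pcbd1) had an unadjusted p under 0.05 (12.6%). The groups did not overlap in 9 (44.6%). Shc3 and Nxnl2 passed the limit of a mean above 1 FPKM only through Brg1-deficient cells, and Spns3 and Pcbd1 only through the controls. Pcbd1, 4.32 kb from Sgpl1, was at 3.34 and 0.98 FPKM in controls and listed at 0 in both Brg1-deficient libraries. Car11, 4.79 kb from Sphk2, was at 2.31 and 1.19 against 3.36 and 4.75 FPKM. Dnmt1, 2.47 kb from S1pr2, and Keap1, 3.55 kb from S1pr5, overlapped between the groups.

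Of 6 B and plasma cell markers, 5 were below 1 FPKM in all 4 libraries, but Cd79b was at 8.68 and 10 against 1.03 and 0.99 FPKM. The summed myeloid list was 110 and 241 FPKM in controls and 80.4 and 222 FPKM in Brg1-deficient libraries, most of it from Lyz2. Like S1pr4 and Fos, it was higher in library 2 of each group, and its part in their values was not tested. The summed list of 10 markers of NKp46+ ILC3s, ILC1s and natural killer cells was 309 and 474 against 655 and 466 FPKM, with Gzma the largest single value at 397 FPKM in Brg1-deficient library 1. By count the list went the other way, with 7 of 9 tested genes lower, as against 6860 of all 14739 genes tested. The median log2 fold change of the list was -1.54. Its genes called lower by limma were 2, Ncr1 and Ifng (adjusted p = 0.033 and 0.0386), as against 0.224% of all genes tested. Ncr1 was at 31.3 and 35.5 against 5.37 and 6.02 FPKM. The epithelial list summed to 5.42 and 6.95 against 20.2 and 17.2 FPKM. Krt18 was its largest value in each library, at 2.02 and 3.48 against 15.7 and 12.9 FPKM. Krt8 was also higher in Brg1-deficient cells, at 0.44 and 0.38 against 2.65 and 2.34 FPKM. Epcam went the other way without overlap, at 1.5 and 1.79 against 0.68 and 0.54 FPKM. The other 5 of the 8 epithelial genes were below 1 FPKM in all 4 libraries. The list of mast cell, platelet and red cell genes summed to 98.5 and 142 against 54.4 and 93.7 FPKM.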
